A study of Mus musculus with 4 samples.

Results

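The genes described here are 10 ligands and receptors of the PDGF and VEGF families: the ligands Pdgfa, Pdgfb, Pdgfc, Pdgfd, Vegfa, Vegfb and Vegfc, the receptors Pdgfra and Pdgfrb, and the co-receptor Nrp1. They were chosen by name, and every probe set that the platform annotation gives to a single gene of these was taken, which made 24 probe sets of 10 genes among 18193 genes. Transcript levels were measured on 4 Affymetrix arrays of mouse dermal fibroblast RNA on a C57BL/6 background, 1 array for each group. In the deleted in vitro sample, cells received an adenovirus that carries Cre recombinase to delete Rbpj in culture, and its control received an adenovirus with GFP. The deleted in vivo sample is labelled ColI Cre x RBP loxp-loxp, a Cre transgene named for collagen I together with a floxed Rbpj gene, and its control carried RBP loxp-loxp without Cre, so both in vivo samples have the floxed gene and both in vitro samples had an adenovirus. Ages, the number of animals pooled, whether the cultured cells carried the floxed gene, and whether the in vivo cells were cultured first are not stated in the sources used here. With 1 array per group, a difference inside a system could not be checked against replicates, and the number of arrays limits the precision. Each system is a single pair of arrays, so the source of the cells and the array run cannot be told apart between systems.

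PDGF ligands are secreted dimers that signal through the receptor tyrosine kinases PDGFR-alpha and PDGFR-beta, which drive growth and migration of mesenchymal cells. In skin, epidermal cells make PDGF-A and dermal fibroblasts carry the receptors, while endothelial cells are a main source of PDGF-B for pericytes. VEGF-A, made by keratinocytes and fibroblasts and induced by low oxygen, acts on endothelium. VEGF-C acts on lymphatic endothelium. Neuropilin-1, the product of Nrp1, binds VEGF and class 3 semaphorins and assists their signalling receptors. The gene deleted in this study, Rbpj, codes for the transcription factor RBP-J kappa (CSL), to which the cleaved Notch receptor binds in the nucleus.

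Promoter sequences from RefSeq (GRCm38.p6) show which of these genes hold the RBP-J core motif near an annotated start. Windows of 300 bases, 250 before the start and 50 after it, were used for 8 of the 10 genes, as 10 windows in all. Those of Pdgfb and Pdgfrb were not used here. The motif TGGGAA was searched on both strands, and 4 of the 10 windows, of 3 genes (Vegfa, Pdgfa and Pdgfd), had a match. Of all 32851 promoter windows in the same table, 25.6% had one. The hypoxia-inducible factor core ACGTG, also searched on both strands, was in 1 of the 10 windows, at an inner annotated start of Vegfa, against 19.6% of all windows. That inner window (chr17:46025114-46025413, minus strand) lies downstream of the outer annotated start. It was not placed against exons, so its matches need not lie in a promoter. No match overlapped another. A match is only a run of letters and says nothing of binding. The windows of 4 genes are given with matches in capitals, read 5′ to 3′ on the gene's strand. Vegfa was taken because its probe sets were all higher in both deleted samples. Nrp1 and Pdgfra were taken because their probe sets all lay in the same direction in vivo. Pdgfd was taken because its gap between the systems was among the largest. That gap is on its brightest probe set, with in vivo signals close to background. These traits do not set the 4 genes apart. The Pdgfc probe sets were also all higher in both deleted samples, and its gap between the systems was as large. The probe sets of Pdgfa and of Pdgfrb also agreed in direction in vivo. The windows of Pdgfc, with no match, and of Pdgfa, 1 with a match, are not printed. The Vegfa window is its outer start (chr17:46032328-46032627, minus strand), with matches on the opposite strand at -238 and -221 from the start. The Pdgfd window (chr9:6168236-6168535, plus strand) has a match on the opposite strand at -56. Nrp1 (chr8:128358823-128359122, plus strand) and Pdgfra (chr5:75152001-75152300, plus strand) have none in these windows.
Vegfa: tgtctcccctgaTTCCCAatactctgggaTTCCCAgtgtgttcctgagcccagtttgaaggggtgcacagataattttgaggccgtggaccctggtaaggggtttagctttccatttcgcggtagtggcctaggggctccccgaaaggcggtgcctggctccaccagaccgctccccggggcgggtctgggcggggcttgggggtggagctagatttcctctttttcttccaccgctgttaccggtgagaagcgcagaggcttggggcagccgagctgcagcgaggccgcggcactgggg
Pdgfd: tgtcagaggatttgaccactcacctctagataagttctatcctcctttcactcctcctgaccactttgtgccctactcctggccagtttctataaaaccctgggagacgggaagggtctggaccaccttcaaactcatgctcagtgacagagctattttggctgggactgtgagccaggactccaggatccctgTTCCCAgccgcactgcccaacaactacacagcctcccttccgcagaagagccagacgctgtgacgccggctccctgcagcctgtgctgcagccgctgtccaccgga
Nrp1: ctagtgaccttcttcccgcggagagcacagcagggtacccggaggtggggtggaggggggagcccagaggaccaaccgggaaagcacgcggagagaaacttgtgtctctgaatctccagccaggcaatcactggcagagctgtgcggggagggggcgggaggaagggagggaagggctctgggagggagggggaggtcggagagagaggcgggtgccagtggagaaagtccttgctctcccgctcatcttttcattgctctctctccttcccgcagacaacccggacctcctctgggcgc
Pdgfra: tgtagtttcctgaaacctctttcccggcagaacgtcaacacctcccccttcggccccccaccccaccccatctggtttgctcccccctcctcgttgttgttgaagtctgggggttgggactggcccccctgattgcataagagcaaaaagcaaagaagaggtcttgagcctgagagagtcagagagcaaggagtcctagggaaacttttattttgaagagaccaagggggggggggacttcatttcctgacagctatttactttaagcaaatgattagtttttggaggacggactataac

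All array values below are quantile-normalized log2 signals, and a difference is the deleted array minus the control array, so that 1 on this scale is 2-fold. A gene is represented by its brightest probe set, and the spread over its probe sets is technical. A gene was analysed when its mean over the 4 arrays reached the 40th percentile of gene means, a log2 signal of 5.28. This kept 10916 genes and 9 of the 10 described here, and Pdgfb fell below it. Rbpj itself, on its 3 probe sets, differed by -1.34, -1.11 and 0.10 in vitro and by -0.83, -0.10 and -0.49 in vivo. Where these probe sets lie relative to the deleted part of the gene was not tested. All 8 fibroblast markers, among them Col1a1, Dcn and Vim, lay above the level cutoff on every array, and 1 of them, Lum, was 2-fold lower in the deleted in vivo sample (-1.06).

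None of the 9 analysed genes was 2-fold different between the deleted and the control array in either system on its brightest probe set. Over all genes analysed, the share past 2-fold in vitro was 0.788% above and 1.15% below the control, and in vivo it was 2.81% above and 3.81% below. At these rates a set of 9 genes with no such difference is not a result about these genes. Of the in vitro 2-fold genes 40.8% were higher, against 57.0% after loess normalization within the pair and 55.9% after the median difference was subtracted. The largest single differences were those of Nrp1 in vivo (0.83), Pdgfa in vitro (-0.68), Pdgfd in vivo (-0.61, on signals under the level cutoff) and Pdgfra in vivo (-0.59). In vitro 4 of the 9 genes were higher and 5 lower in the deleted sample, with a median of -0.09 against -0.06 over all genes analysed. In vivo 4 were higher and 5 lower, with a median of -0.05 against -0.03 over all genes.

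**Figure D1:**
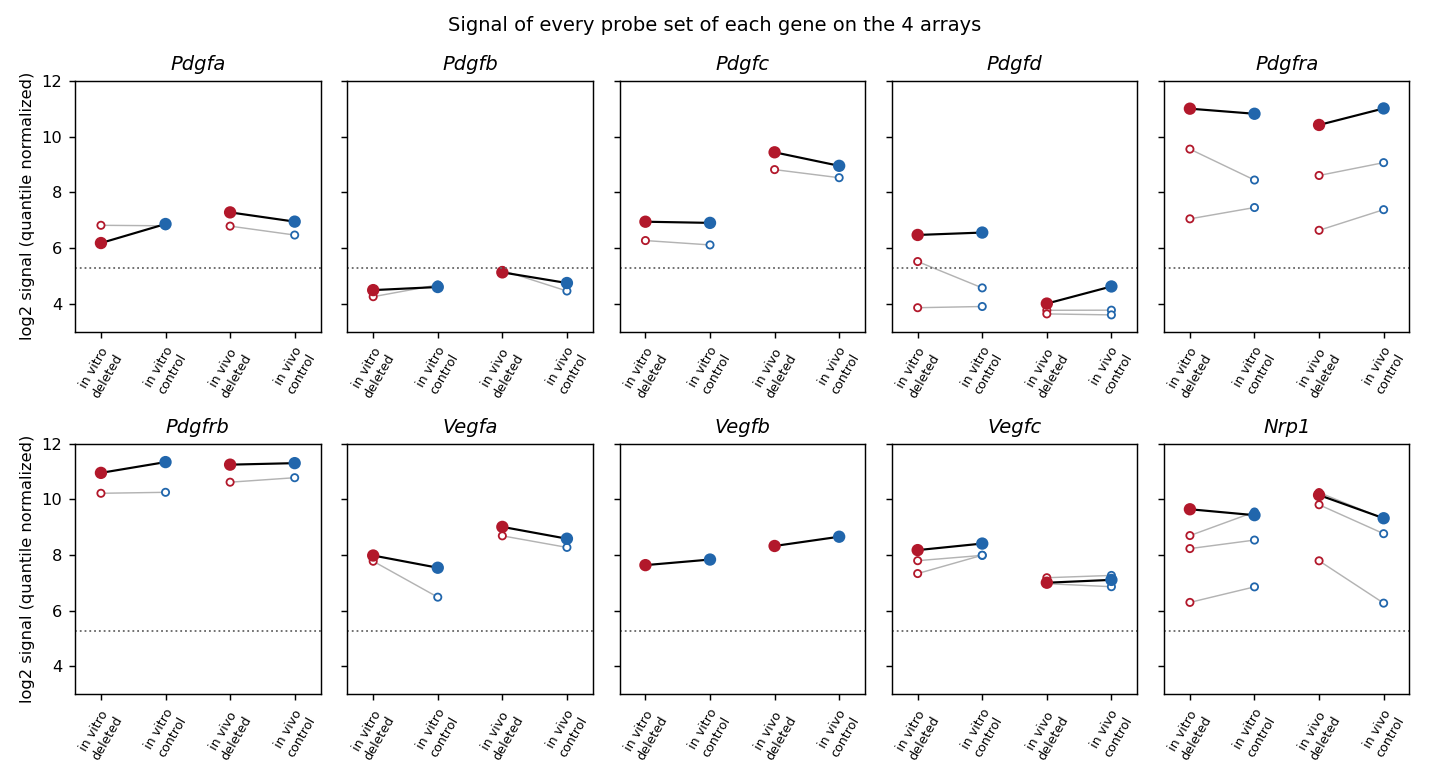
Each panel plots the quantile-normalized log2 signal of the probe sets of a gene on the 4 arrays, with deleted arrays in red and control arrays in blue. Filled points and black lines are the brightest probe set, open points the others, and the dotted line is the level cutoff of 5.28. Pdgfb lies under the cutoff on all arrays, and Pdgfc and Pdgfd differ more between the systems than between deleted and control arrays.

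Pdgfa encodes the PDGF-A chain, which binds PDGFR-alpha. Its brightest probe set read 6.18 in the deleted and 6.86 in the control culture, a difference of -0.68. Its other probe set read 6.82 in the deleted and 6.80 in the control culture, so the lower value in the deleted culture was seen on 1 of its 2 probe sets. In vivo the brightest read 7.28 in the deleted and 6.95 in the control sample, and both probe sets were higher in the deleted sample, by 0.33 and 0.32. Pdgfa was 1 of 3 genes, with Pdgfb and Pdgfra, whose brightest probe set was lower in a deleted sample of 1 system and higher in that of the other.

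Pdgfb encodes the PDGF-B chain, which binds both receptors. Its brightest probe set read 4.49 in the deleted and 4.60 in the control culture, and 5.13 in the deleted and 4.74 in the control in vivo sample. All of these lie under the level cutoff, as did its second probe set on all 4 arrays, so its differences (-0.11 and -0.42 in vitro, 0.38 and 0.74 in vivo) are those of signals close to background. Endothelial markers, of cells known to make PDGF-B, were also mostly under the cutoff: 8 of 10 in both cultures, 7 of 10 in the deleted and 8 of 10 in the control in vivo sample, Pecam1 and Cdh5 among them on every array.

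Pdgfc encodes PDGF-C, a ligand released from a latent form by proteolysis. It read 6.95 in the deleted and 6.90 in the control culture, a difference of 0.04. In vivo it read 9.44 in the deleted and 8.95 in the control sample, a difference of 0.49. The brightest probe set has the suffix _s_at, which marks probes shared with other transcripts, and the other probe set gave 0.16 in vitro and 0.29 in vivo. Both probe sets of Pdgfc were thus slightly higher in both deleted samples, by less than 1.5-fold.

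Pdgfd encodes PDGF-D, a ligand of PDGFR-beta. It read 6.47 in the deleted and 6.56 in the control culture, against 4.01 in the deleted and 4.62 in the control in vivo sample. The in vivo signals are under the cutoff, so the in vivo difference of -0.61 is not exact, and its other 2 probe sets were at -0.0038 and 0.04 in vivo. Pdgfd passed the level filter, with a mean of 5.41, through the cultures alone. A dimmer probe set had 5.52 in the deleted and 4.57 in the control culture, a difference of 0.95 that the other 2 probe sets (-0.09 and -0.04) did not show.

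The PDGF receptors were bright on all arrays. Pdgfra, the gene of PDGFR-alpha and a common marker of dermal fibroblasts, read 11.01 in the deleted and 10.82 in the control culture. In vivo it read 10.42 in the deleted and 11.02 in the control sample, 1.51-fold lower in the deleted sample. Its 3 probe sets all lay lower in vivo (-0.46, -0.59 and -0.74, mean -0.60 ± 0.14, SD over probe sets), whereas in vitro they ran from -0.41 to 1.11. The probe set at 1.11 read 9.55 in the deleted and 8.44 in the control culture, and was at least 2-fold higher. It is also the middle value of the 3, by signal, so the median over probe sets placed the in vitro difference of Pdgfra at 1.11.

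Pdgfrb, the gene of PDGFR-beta, the receptor of pericytes and fibroblasts, read 10.95 in the deleted and 11.34 in the control culture, and 11.25 in the deleted and 11.30 in the control in vivo sample. Both of its probe sets were lower in both deleted samples, with differences of -0.39 and -0.03 in vitro and -0.05 and -0.16 in vivo. The 5th and 95th percentiles of the difference over all genes analysed were -0.74 and 0.59 in vitro, and -0.88 and 0.75 in vivo, and the Pdgfrb values lie well inside them.

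Vegfa encodes the main angiogenic ligand. It read 7.98 in the deleted and 7.55 in the control culture, and 9.01 in the deleted and 8.59 in the control in vivo sample. The differences of its brightest probe set, 0.44 and 0.42, were the closest pair among the genes higher in both systems. Its second probe set read 7.78 in the deleted and 6.49 in the control culture, a difference of 1.29, and differed by 0.41 in vivo. Vegfa was thus higher on both probe sets in both deleted samples, by 1.36-fold and 1.34-fold on the brightest.

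Vegfb, a ligand of the receptor FLT1, had 1 probe set and read 7.64 in the deleted and 7.84 in the control culture, and 8.33 in the deleted and 8.66 in the control in vivo sample. Its differences were -0.20 and -0.33. Vegfc, the lymphangiogenic ligand, read 8.18 in the deleted and 8.41 in the control culture, and 7.01 in the deleted and 7.11 in the control in vivo sample. Its 3 probe sets were all lower in the deleted culture (-0.24, -0.19 and -0.66) and lay between -0.10 and 0.11 in vivo.

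Nrp1 showed the largest in vivo difference of the 10 genes. Its brightest probe set read 10.16 in the deleted and 9.32 in the control sample, 1.78-fold higher, at percentile 96.0 of all genes analysed. All 4 of its probe sets were higher in the deleted in vivo sample, by 0.83, 0.94, 1.04 and 1.52, a mean of 1.08 ± 0.30 (SD over probe sets). In the cultures the brightest probe set read 9.65 in the deleted and 9.43 in the control sample, a difference of 0.21, but the other 3 were lower in the deleted culture (-0.31, -0.56 and -0.85). The direction of Nrp1 in vitro therefore depended on the probe set, and that in vivo did not.

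**Figure D2:**
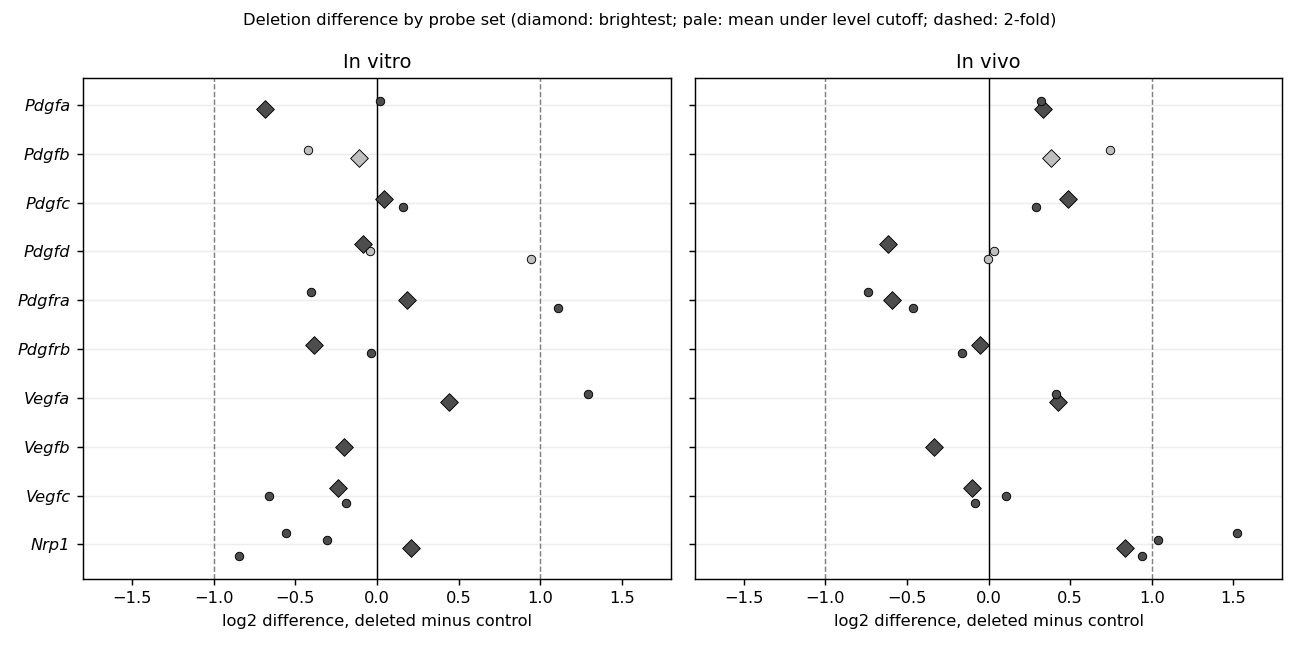
Log2 difference, deleted minus control, of each probe set in vitro (left) and in vivo (right), with genes down the page. Diamonds are the brightest probe set, pale symbols have a mean under the level cutoff, and dashed lines mark 2-fold. The 4 Nrp1 probe sets lie between 0.83 and 1.52 in vivo, and the 3 Pdgfra probe sets between -0.74 and -0.46.

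Counted by probe set, 20 of the 24 had a mean at or above the level cutoff. In vitro 2 of the 20, of Pdgfra and Vegfa, lay past 2-fold above the control and 0 below it, against 3.87% and 1.16% of all 18127 such probe sets. In vivo 2, both of Nrp1, lay past 2-fold above the control and 0 below it, against 2.86% and 3.34%. Probe sets of a gene share its transcripts and are not independent.

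The 3′ to 5′ balance of control transcripts, a sign of RNA quality, differed between the cultures. The 3′ control probe set of Gapdh exceeded the 5′ one by 0.02 in the deleted and 1.0 in the control culture, and that of Actb by 0.40 in the deleted and 1.11 in the control. In vivo the Gapdh values were 0.13 in the deleted and 0.14 in the control sample, and those of Actb 0.15 in the deleted and 0.41 in the control. The excess of Pcx was 2.01 in the deleted and 3.16 in the control culture, and 0.83 in the deleted and 1.10 in the control in vivo sample. Tfrc went the other way, at 1.45 in the deleted and 0.96 in the control culture, and at 1.54 in the deleted and 1.25 in the control in vivo sample. The part of this imbalance in the in vitro values of Pdgfra, Vegfa, Pdgfd, Pdgfa and Nrp1, whose probe sets spread most, was not tested.

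Markers of other cells differed in the in vivo pair. Of 10 keratinocyte markers 8 were at least 2-fold higher in the deleted in vivo sample, the others being Krt15 and Trp63, and their summed linear signal was 6646 there and 413 in the control, where 4 of the 10 were under the cutoff. In the cultures the sum was 599.6 in the deleted and 1113 in the control sample. Skeletal muscle markers summed to 3251 in the deleted and 692 in the control in vivo sample, with 7 of 8 at least 2-fold higher, and to 353 in the deleted and 420.4 in the control culture. Endothelial markers summed to 466 in the deleted and 411 in the control in vivo sample, and to 351 in the deleted and 349.8 in the control culture. Pericyte and smooth muscle markers summed to 10598 in the deleted and 9084 in the control in vivo sample, and to 8370 in the deleted and 6992 in the control culture. Most of this sum was Acta2 (13.25 in the deleted and 13.05 in the control in vivo sample), so it does not measure pericytes. Of the 7 analysed, 5 were higher and 2 lower in the deleted in vivo sample. Des differed by 1.51 (other probe set -0.11), Kcnj8 by -0.50 and Abcc9 by -0.41, and Rgs5 was under the cutoff on every array. Macrophage markers summed to 396 in the deleted and 495 in the control in vivo sample, and to 671 in the deleted and 770.4 in the control culture, with Adgre1 within 0.1 of the cutoff or below it on each array. Of the 3 analysed, Lyz2 differed by -1.06 in vivo, and Csf1r (0.21) and Cd68 (0.05, under the cutoff) were slightly higher. This sum therefore does not measure macrophages. Megakaryocyte and platelet markers summed to 179 in the deleted and 189 in the control in vivo sample and to 163 in the deleted and 195 in the control culture, with Ppbp and Pf4 under the cutoff on every array. Keratinocytes are known to make PDGF-A and VEGF-A, and the part of these cells in the in vivo differences was not tested. In bulk RNA, fewer cells of a type and less RNA per cell cannot be told apart.

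The deletion effect shared by both systems was fitted with limma over all 10916 genes analysed, with system as a covariate and 1 residual degree of freedom. At a Benjamini-Hochberg adjusted p below 0.05 it called 0% of genes (0 genes, with 759 at an unadjusted p under 0.05), so none of the 9 genes passed. Vegfa had a shared effect of 0.43 ± 0.20 (SE, limma adjusted p = 0.690) and Nrp1 of 0.52 ± 0.25 (SE, limma adjusted p = 0.690). Each was higher in both deleted samples on its brightest probe set. The limma adjusted p of the other 7 genes lay between 0.722 and 0.910. The brightest probe set had the same sign in both systems for 7 of the 9. The share of such genes among all genes was not taken, so nothing is read from this count. For Nrp1, Pdgfd and Vegfc the sign depended on the probe set in at least 1 system.

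For 4 of the genes the gap between the systems reached 2-fold on the brightest probe set, while no deletion difference did. Taking in vitro minus in vivo separately in the deleted and the control arrays, Pdgfd (2.47 and 1.94) and Vegfc (1.17 and 1.30) were at least 2-fold higher in vitro in both. Pdgfc (-2.49 and -2.05) and Vegfa (-1.03 and -1.04) were at least 2-fold lower in vitro in both. Over all genes analysed 3.98% met the first rule and 2.54% the second, and 2 and 2 of the 9 genes did. Pdgfd is 1 of them and passed the level filter only through the cultures, where it is high, so nothing is read from these counts, and no test was made. Pdgfc was the only one of these 4 with the gap on all its probe sets (-2.55 and -2.41 on the other). The second probe set of Vegfa was at -0.91 in the deleted and -1.79 in the control arrays. The other probe sets of Vegfc were at 0.61 and 0.36 in the deleted and 0.72 and 1.13 in the control arrays. Those of Pdgfd were at 1.75 and 0.22 in the deleted and 0.80 and 0.30 in the control arrays, and its in vivo signals were under the cutoff. With values as deposited, with loess within pairs, or with an offset added before log2, Vegfa no longer reached 2-fold in both. With the median over probe sets only Pdgfc did.

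**Figure D3:**
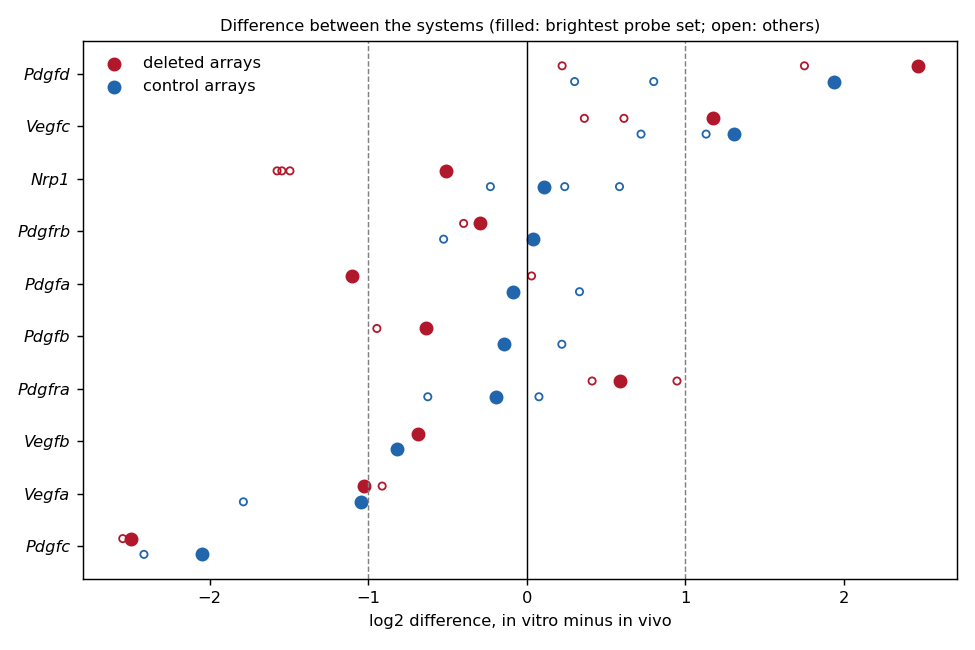
Log2 difference, in vitro minus in vivo, for the deleted arrays (red) and the control arrays (blue), with genes ordered by the control arrays. Filled points are the brightest probe set, open points the others, and dashed lines mark 2-fold. Pdgfc lies at -2.49 and -2.05 and Pdgfd at 2.47 and 1.94.

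On the brightest probe set, the order of the arrays was split by system for Pdgfc, Vegfa and Vegfc but not for Nrp1, Pdgfra and Pdgfrb. It was also split for Vegfb, for Pdgfd and Pdgfb on signals wholly or partly under the cutoff, and narrowly for Pdgfa. The control arrays of Pdgfa read 6.95 in vivo and 6.86 in vitro. Its other probe set was split the other way, with the deleted and control cultures (6.82 and 6.80) above the deleted and control in vivo samples (6.79 and 6.47). A dimmer probe set of Nrp1 and the dimmer one of Pdgfrb were split by system. Pdgfc was highest in the deleted in vivo sample (9.44), then the control in vivo sample (8.95), with both cultures within 0.1 of each other. Vegfa had the same order in vivo (9.01, then 8.59), followed by the deleted (7.98) and the control culture (7.55). Vegfc ran the other way, with the control culture (8.41) and the deleted culture (8.18) above the in vivo samples. Nrp1 was highest in the deleted in vivo sample (10.16), and its other 3 arrays lay within 0.4 of each other (9.32 to 9.65). Pdgfra was lowest in the deleted in vivo sample (10.42), and its other 3 arrays lay between 10.82 and 11.02. The Pdgfrb signals of all 4 arrays lay between 10.95 and 11.34.

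Partner genes of these pathways came from 6 lists of 63 genes, all with a probe set and 57 analysed. Beside the all-gene shares given above, 1 of the 57 lay past 2-fold above the control in vitro and 0 below it, while in vivo 4 lay above and 4 below. Their medians were 0.07 in vitro and -0.05 in vivo. None passed the limma fit (smallest adjusted p = 0.679). Among the other PDGF and VEGF ligands and receptors, 6 of 7 were analysed, Flt4 being under the filter. In vivo 1 was at least 2-fold higher and 2 lower, against 2.81% and 3.81% of all genes analysed. Vegfd, a second lymphangiogenic ligand, read 8.16 in the deleted and 10.21 in the control in vivo sample, 4.14-fold lower, with its 3 probe sets between -2.61 and -2.05. It read 11.56 in the deleted and 11.35 in the control culture, with probe sets between -1.22 and 0.21. Flt1, a receptor that also traps VEGF in a soluble form, read 8.18 in the deleted and 6.94 in the control in vivo sample, with its 4 probe sets between 0.61 and 1.24. Pdgfrl, a PDGF receptor-like gene, read 7.59 in the deleted and 8.74 in the control in vivo sample, and was lower in the cultures too (-0.71).

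Of the ligand-processing proteases and cofactors, 5 of 7 were analysed and 1 was at least 2-fold higher in vivo, against 2.81% of all genes analysed. Ccbe1, a secreted cofactor of VEGF-C maturation, read 7.17 in the deleted and 5.40 in the control in vivo sample, but its 4 probe sets ran from -0.08 to 1.78. Plat, the tissue plasminogen activator, which cleaves PDGF-C, differed by 0.62 in vitro and -0.05 in vivo. Of the semaphorins and plexins that act through neuropilins, 11 of 12 were analysed. In vivo 1 was at least 2-fold lower, against 3.81% of all genes analysed. Sema3a, a repulsive ligand of Nrp1, read 4.82 in the deleted and 7.49 in the control in vivo sample, with the deleted signal under the cutoff, which leaves its size inexact, and its 3 probe sets between -2.68 and -0.04. Sema3c differed by 0.51 in vitro and -0.90 in vivo.

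Of 23 receptor-proximal signalling and feedback genes 21 were analysed and 0 were 2-fold different in either system, which at the all-gene shares of 0.788% to 3.81% is not a result about this list. The largest differences were those of Nck1, an adaptor (-0.81 in vivo, probe sets from -0.81 to 0.36), and Crk, another adaptor (0.74 in vitro, probe sets from 0.02 to 1.56). Of 6 extracellular binders, Thbs1, the gene of thrombospondin-1, read 12.93 in the deleted and 11.88 in the control culture, 2.07-fold higher. Adamts1, a protease that binds VEGF, was 2.07-fold lower in the deleted in vivo sample (9.48 in the deleted, 10.53 in the control), while it was higher in the deleted culture (0.80). Of 8 hypoxia-inducible factors and oxygen-sensing regulators, 2 were at least 2-fold higher in vivo, against 2.81% of all genes analysed. The list is small and no test of it was made. Egln3, a prolyl hydroxylase that is itself induced by low oxygen, read 7.22 in the deleted and 5.84 in the control in vivo sample, and Epas1, which encodes HIF-2 alpha, read 9.14 in the deleted and 8.0 in the control. Both Egln3 probe sets were at least 2-fold higher (1.18 and 1.38), and those of Epas1 were at 0.37 and 1.14.

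**Figure D4:**
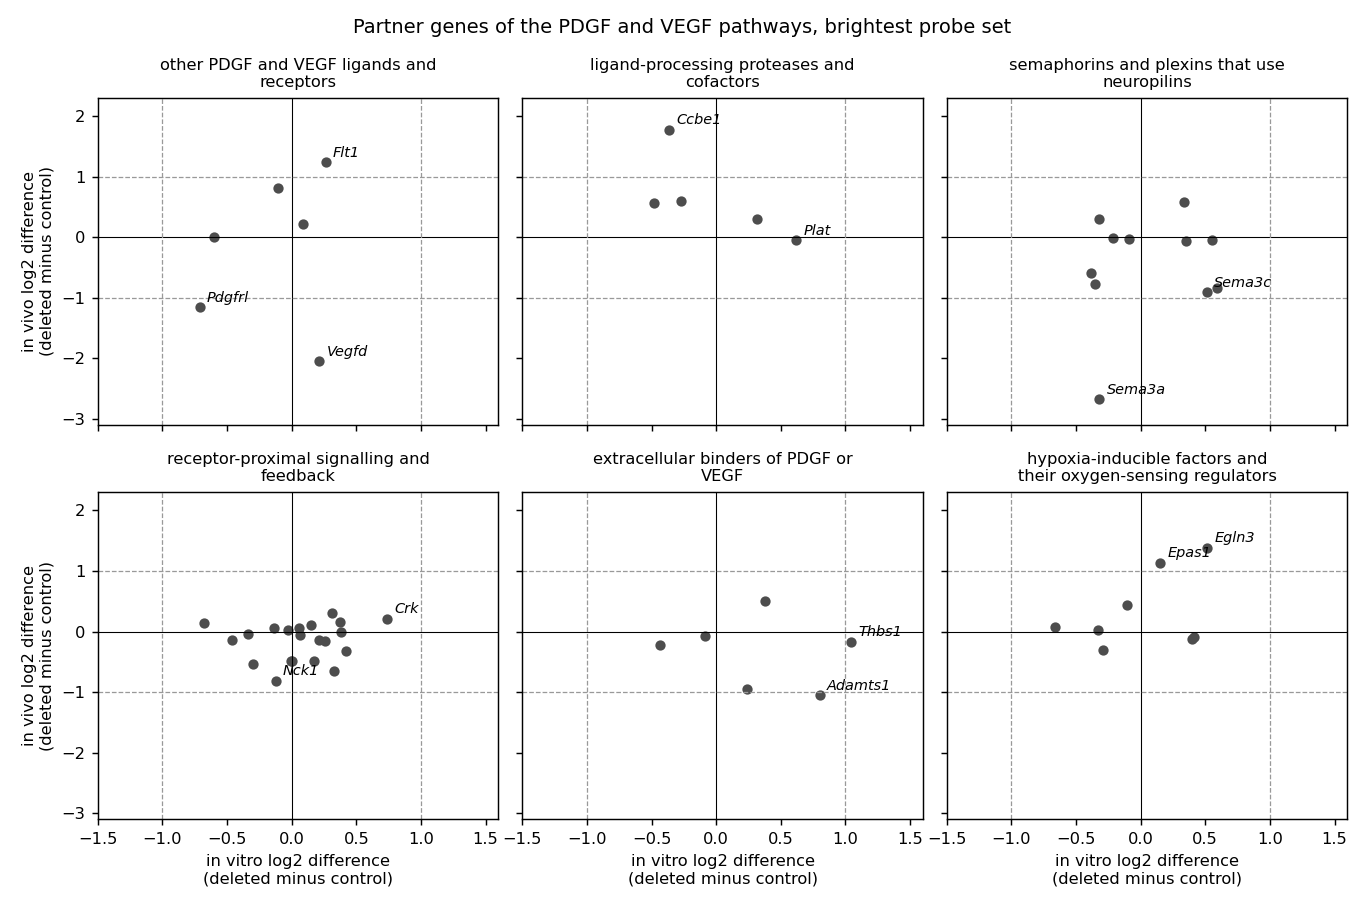
Each panel is a list of partner genes, with the in vitro log2 difference on the horizontal and the in vivo log2 difference on the vertical axis, deleted minus control, for analysed genes. Dashed lines mark 2-fold, and the genes described in the text are labelled. Vegfd lies at -2.05 and Ccbe1 at 1.78 in vivo, and the Sema3a point (-2.68) rests on a deleted signal under the level cutoff.

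For the 3 genes with the largest difference within a system, Pdgfd among them on in vivo signals under the cutoff, the genes of nearest pattern over the 4 arrays were sought by Euclidean distance between values less their own mean. Those nearest to Nrp1 were Il6 (0.04), Ezh2 (0.06) and Iqgap1 (0.08), whose in vivo differences were 0.89, 0.86 and 0.73. The control arrays of Il6 (5.24 in vitro and 5.09 in vivo) were under the cutoff. The pattern matched is that of the brightest Nrp1 probe set, and its other probe sets went the other way in vitro. Those nearest to Pdgfa were Mrpl19 (0.03), Pttg1 (0.05) and Emd (0.07), and to Pdgfd they were Mtss1 (0.11), Tdrp (0.20) and Pard3b (0.20). With 4 arrays many genes have a like pattern, and the distances are a description.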

How the data were processed

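The authors deposited log2 expression values for 45101 probe sets on 4 arrays. The software and normalization behind them are not given in the sources used here, and their range (2.87 to 13.79) showed the log2 scale. Biotin-labelled cRNA was made from poly(A) RNA with a T7 oligo(dT) primer, per the labels' protocols, so signal can depend on distance from the 3′ end. The upper quartiles of the arrays differed (6.91 to 7.18), so the values were quantile normalized with limma 3.58.1 in R 4.3.3. The platform annotation gave 1 gene to 34958 probe sets and several to 932, and left 9211 unnamed here. Symbols were updated through RefSeq (GRCm38.p6), where 34754 matched. Differences of 2-fold were counted without a test. The shared effect was fitted with lmFit and eBayes and adjusted by Benjamini-Hochberg at 0.05. The code of the fit was checked on simulated data with a large effect, the same in both systems. That check says nothing of power in these data. Named were all 10 genes and, from each partner list, genes at least 2-fold different in either system, or the 2 with the largest difference where fewer than 2 were. The genes and lists were chosen with earlier results of these data known. Alternatives were deposited values, loess within pairs, subtraction of the median difference, an offset before log2 equal to the 20th percentile of linear signals (15.4), no level filter or a 60th percentile filter, the median of probe sets, removal of _x_at and _s_at probe sets, thresholds of 1.5-fold and 3-fold, a variance trend, and no system term. The comparison between systems was added after seeing the data.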

Additional observations from a re-analysis of the deposited data

Results flagged for a closer look

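The brightest probe sets of 3 genes differed in opposite directions in the 2 systems, and with 1 pair of arrays in each the difference between the systems was not tested. Pdgfa differed by -0.68 in vitro and 0.33 in vivo. Pdgfb differed by -0.11 in vitro and 0.38 in vivo, with all signals under the level cutoff. Pdgfra differed by 0.18 in vitro and -0.59 in vivo.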

How the results depend on the processing

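Of 120 values of single genes under an alternative, 116 kept their direction and their side of 2-fold. Some of these could not change. Removal of _x_at and _s_at probe sets altered only the values of Pdgfc, and Vegfb has 1 probe set, so its median is the same value. The count is therefore not a measure of stability. The median over probe sets moved Pdgfra in vitro to 1.11, Pdgfd in vitro to 0.95 and Nrp1 in vitro to -0.52 (and Pdgfd in vivo to -0.0038), and loess within pairs moved Pdgfd in vitro to 0.02. The median over probe sets thus made 1 gene difference at least 2-fold, against 0, and left 1 gene 2-fold different between systems in both pairs, against 4. It also gave 351 genes 2-fold different in vitro, of which 70.7% were higher, against 211. In vivo the 60th percentile filter left 452 genes against 723, since fewer genes were tested. Thresholds of 1.5-fold and 3-fold gave 1611 and 15 genes in vitro and 2101 and 192 in vivo. The limma fit called 0 genes under every alternative run, with 131 to 1230 at an unadjusted p under 0.05. The labels give no replicate numbers. The only test of deleted against control arrays was the limma fit, with system as a covariate, which gave 1 effect for both systems. No test inside a system was possible, and no array could be left out, because each group has 1. Signals close to background limit what can be said of Pdgfb, and of Pdgfd, Sema3a and Sema3d in vivo.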

Other observations

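Further partner genes are named here after their values were seen, 2 of them, Sema3d and Pcsk6, for their gap between the systems. Sema3d, a class 3 semaphorin, read 8.67 and 8.08 in the deleted and control cultures and 3.42 and 4.25 in the deleted and control in vivo samples, with both in vivo signals under the level cutoff. Pcsk6, a proprotein convertase, read 10.11 and 9.79 in the deleted and control cultures and 6.60 and 6.30 in vivo. Pgf, the gene of placental growth factor, a ligand of FLT1, differed by -0.11 in vitro, on signals under the cutoff, and by 0.81 in vivo.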
